A study of Homo sapiens with 2 samples.

Results

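The genes described here carry out DNA replication and mark S phase, the stage of the cell cycle in which the genome is copied. They were chosen by function as a list of 52 genes, and each was read from its RefSeq transcripts together with the assembled transcripts with a strand that shared an intron with it. All 52 had rows in both deposited files, out of 25545 genes with rows in both. RNA was sequenced from A549, an established line from a human lung adenocarcinoma, labelled as non-small cell lung cancer. The first group carried an shRNA against PSPC1 (shPSPC1), which encodes an RNA-binding protein of paraspeckles, and the other an shRNA against LacZ (shLacZ), a bacterial gene that human cells lack. Each group had 1 library, and both were grown with 10% serum and 1% antibiotics before Trizol extraction of RNA. How many clones or cultures each library stands for, and the shRNA sequence, are not given in the sources used here.

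Replication starts where the origin recognition complex sits on DNA and, with CDC6 and CDT1, loads the ring-shaped MCM2 to MCM7 helicase in G1. CDC45 and the GINS complex then turn the ring into an active helicase, primase and DNA polymerase alpha lay down primers, and polymerases delta and epsilon extend them on the PCNA clamp, which RFC loads. Many of these genes are E2F targets whose transcripts rise late in G1 and fall as S phase ends, so their summed level in growing cells is widely used as a readout of proliferation.

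Levels are given as FPKM, the fragments found per kilobase of a transcript after scaling by library size, summed over the transcripts of a gene. The value after ± on an FPKM is the half-width of a 95% interval that Cufflinks computed within 1 library. Such an interval covers counting and assignment error only, no difference below has a replicate check, and no p-value is given. Because a short assembled transcript takes a high FPKM from few fragments, a second measure is given beside the first. It is the number of estimated fragments, that is FPKM times library depth and the length over which a fragment can start, summed over a gene. For ratios it was divided by depth and by that length for the gene's longest RefSeq transcript, which gives units of FPKM. Ratios of the printed fragment numbers therefore differ somewhat from the log2 ratios by fragments. Counting intervals of estimated fragments rest on the number of fragments alone. Log2 ratios are shPSPC1 over shLacZ with a pseudocount of 1 FPKM, which makes the ratio of a low gene smaller. The value after ± on a log2 ratio by fragments comes from the fragment numbers of both libraries. It covers counting error only, without error of assignment or assembly. A gene was said to rise or fall only past a rule of size by both measures: 1 FPKM or more in the higher library, a log2 ratio of at least 1 in size and intervals that do not overlap.

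PSPC1 itself stood at 17.7 ± 0.858 FPKM in the shPSPC1 library and 31.5 ± 1.25 FPKM in the shLacZ library, which is 56.3% of the control level. It was lower as its label says, short of the rule of size. The intervals imply a depth of about 57100000 fragments for shPSPC1 and 56100000 for shLacZ. Epithelial markers were at 1 FPKM or more for 6 of 6 genes, with sums of 2920 FPKM in shPSPC1 and 3708 FPKM in shLacZ. Markers of alveolar type 2 cells, to which lung adenocarcinoma is often related, were below 1 FPKM for 5 of 5 genes, with sums of 0.519 FPKM in shPSPC1 and 0.524 FPKM in shLacZ. Of 5 leukocyte markers CD14 alone passed 1 FPKM, at 1.89 in shPSPC1 and 2.07 in shLacZ, and none of 5 fibroblast or 5 endothelial markers did.

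The promoters of 6 of these genes are shown because replication genes are known for E2F control through letters near their start. The helicase genes MCM2, MCM3, MCM6 and MCM7, the loader CDC6 and the factor E2F1 are given. Each window is the RefSeq window of 300 bases on GRCh38.p14, with 250 bases before and 50 bases after the gene start, 5′ to 3′ on the strand of the gene. Capitals mark TTTCCCGC, TTTCGCGC, TTTGCCGC or TTTGGCGC on either strand, and matches on opposite strands that overlap were counted separately. Where a gene had several windows, the window with the most matches is shown. The other MCM7 windows and the MCM10 window held no match and are not shown. The MCM2 window is chr3:127598161-127598460 on the plus strand, the MCM3 window chr6:52284693-52284992 on the minus strand and the MCM6 window chr2:135876394-135876693 on the minus strand. The MCM7 window is chr7:100101348-100101647 on the minus strand, the CDC6 window chr17:40287629-40287928 on the plus strand and the E2F1 window chr20:33686336-33686635 on the minus strand.
MCM2: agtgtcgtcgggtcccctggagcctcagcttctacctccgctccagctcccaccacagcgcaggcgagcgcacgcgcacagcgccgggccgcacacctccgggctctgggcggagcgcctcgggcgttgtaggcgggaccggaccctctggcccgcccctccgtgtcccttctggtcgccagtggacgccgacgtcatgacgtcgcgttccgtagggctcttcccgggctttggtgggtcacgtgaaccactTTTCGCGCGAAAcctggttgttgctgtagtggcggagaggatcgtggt
MCM3: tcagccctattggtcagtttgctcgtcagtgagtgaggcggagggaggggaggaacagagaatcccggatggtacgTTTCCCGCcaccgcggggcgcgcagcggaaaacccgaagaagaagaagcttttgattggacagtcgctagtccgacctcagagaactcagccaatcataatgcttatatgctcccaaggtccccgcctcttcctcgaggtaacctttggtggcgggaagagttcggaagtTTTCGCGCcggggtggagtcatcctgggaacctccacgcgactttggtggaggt
MCM6: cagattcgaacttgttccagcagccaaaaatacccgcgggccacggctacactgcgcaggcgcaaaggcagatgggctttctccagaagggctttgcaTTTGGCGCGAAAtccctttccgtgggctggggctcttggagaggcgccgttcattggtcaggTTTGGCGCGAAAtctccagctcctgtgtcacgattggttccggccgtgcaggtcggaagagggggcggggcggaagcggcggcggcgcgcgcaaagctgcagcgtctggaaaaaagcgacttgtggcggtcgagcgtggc
MCM7: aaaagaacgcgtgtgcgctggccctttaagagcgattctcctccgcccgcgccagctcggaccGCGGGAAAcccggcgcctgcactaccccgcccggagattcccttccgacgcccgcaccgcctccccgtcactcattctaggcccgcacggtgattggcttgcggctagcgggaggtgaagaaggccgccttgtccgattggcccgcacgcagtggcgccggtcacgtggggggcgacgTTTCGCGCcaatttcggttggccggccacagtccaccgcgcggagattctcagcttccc
CDC6: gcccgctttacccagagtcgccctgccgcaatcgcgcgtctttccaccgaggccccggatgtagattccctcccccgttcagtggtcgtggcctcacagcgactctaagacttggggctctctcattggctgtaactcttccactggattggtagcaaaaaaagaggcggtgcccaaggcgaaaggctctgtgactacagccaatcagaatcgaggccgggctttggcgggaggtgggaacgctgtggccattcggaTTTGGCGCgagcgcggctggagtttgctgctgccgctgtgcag
E2F1: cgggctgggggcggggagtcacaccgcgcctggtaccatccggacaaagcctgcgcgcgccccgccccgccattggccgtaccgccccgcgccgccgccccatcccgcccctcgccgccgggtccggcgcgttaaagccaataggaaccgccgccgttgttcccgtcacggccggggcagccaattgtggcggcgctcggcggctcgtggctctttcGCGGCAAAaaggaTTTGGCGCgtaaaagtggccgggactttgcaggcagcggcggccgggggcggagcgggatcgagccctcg

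In the MCM2 window 2 overlapping matches form a single palindromic block just after the gene start. The MCM6 window holds 4 matches, in 2 blocks upstream of the start, in each of which a pair of matches on opposite strands overlaps. E2F1, which encodes an E2F factor itself, has 2 matches in opposite directions upstream of its start. Across the list, 25 of 45 genes with a window (55.6%) held at least 1 match, against 3.99% of 27305 genes in the table. The CCAAT box, searched on both strands, was in 29 of 45 genes (64.4%) and in 39.7% of all genes. A match is a description of letters, and a window without one says nothing about the factor. The median log2 ratio by estimated fragments was -0.11 for the 25 genes with an E2F match, 18 of them below 0. It was -0.05 for the 19 genes without a match, PRIM1 left out, 12 of them below 0. Members with no window in the table were MCM5, WDR76, E2F8, MCM4, GINS4, DSCC1 and ATAD2.

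Replication genes were expressed in both libraries, most of them strongly, and their levels lay close together. By summed FPKM, 44 of 52 were at 10 FPKM or more in both libraries and 51 were at 1 FPKM or more in both. The clamp PCNA was the most abundant, at 428 ± 7.95 FPKM in shPSPC1 and 467 ± 10.3 FPKM in shLacZ, and held 23.7% of the list's summed FPKM in shPSPC1 and 23.8% in shLacZ. E2F2 and E2F8 were the least abundant of the genes detected in both. The median log2 ratio of the 52 genes was -0.10 by summed FPKM and -0.12 by estimated fragments, beside 0.01 by either measure for 10816 genes at 1 FPKM or more in both libraries.

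Small differences below 0 were common. The log2 ratio was below 0 for 36 of 52 genes (69.2%) by summed FPKM and for 37 (71.2%) by estimated fragments, against 48.9% of all genes by either measure. The counting intervals of estimated fragments did not overlap for 28 genes lower in shPSPC1 (53.8%) and 5 genes higher (9.62%). The background was 26.4% of 11511 genes at 1 FPKM or more in the higher library for lower and 26.7% for higher. By summed FPKM the intervals were apart for 24 lower genes, beside a background of 25.6%, and 7 higher genes, beside 26.0%. Both kinds of interval were apart for 21 lower genes, beside 21.6%, and for 4 higher genes, CDT1, MCM3, FEN1 and NASP, beside 21.4%. The differences were small: 43 of 52 genes (82.7%) lay within 0.25 of 0 by estimated fragments, as did 73.0% of all genes. Summed over the list and not scaled for depth, estimated fragments came to 227359 in shPSPC1 and 244113 in shLacZ, 93.1% of the control sum. Without PRIM1, listed at 0 in shPSPC1, the share was 93.9%. For the 10816 genes at 1 FPKM or more in both libraries it was 99.2%. In bulk RNA, fewer cells in S phase and less of these transcripts per cell cannot be told apart.

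The counts on either side of 0 move with the scaling of the libraries. When both libraries were scaled to a fixed sum without the 13 mitochondrially encoded genes, shPSPC1 values were multiplied by 1.07 and the median of all genes became 0.09. The median of the list was then -0.01, and 29 of 52 genes (55.8%) were below 0. The same factor, taken from summed FPKM, was applied to estimated fragments. By that measure 15 genes were then lower and 15 higher with intervals apart, beside 18.3% and 40.8% of all genes. Over all genes FPKM summed to 710835 in shPSPC1 and 760224 in shLacZ. Fragments of the 10816 genes, not scaled for depth, summed in shPSPC1 to 99.2% of control, so the 2 measures do not give the same factor. The factor multiplies every gene alike, so the distance between the list and all genes stays nearly the same by construction. The pseudocount of 1 FPKM lets it move slightly.

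Past the rule of size, 1 of the 52 genes was lower by both measures, PRIM1, and 0 were higher. The background was 1.34% of 11511 genes for lower and 1.14% for higher. By summed FPKM alone the counts were the same, beside 2.01% and 1.71%, and by estimated fragments alone likewise, beside 1.70% and 1.56%. With the fold lowered to 1.5 and summed FPKM, CDC6, PRIM1, DSCC1 and UHRF1 were lower, beside 5.49% of all genes, and NASP was higher, beside 4.40%. PRIM1 is a special case, set out below with its locus, because it was listed at 0 in the shPSPC1 file.

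**Figure D1:**
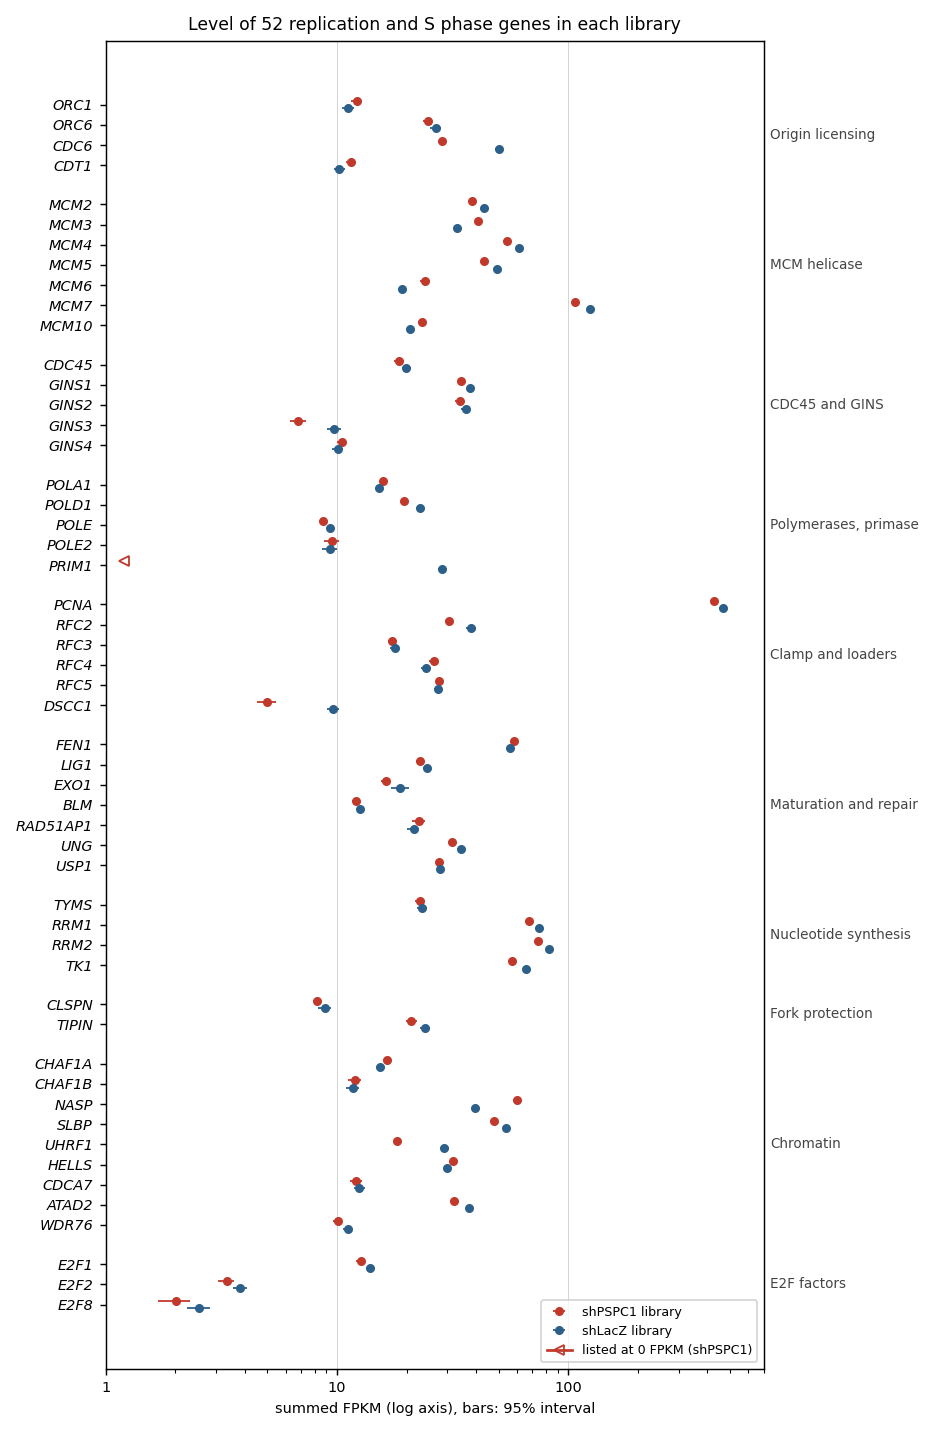
Summed FPKM of the 52 genes on a log axis, shPSPC1 (red) above shLacZ (blue) for each gene, grouped by role, with bars for the 95% interval. Most pairs of points lie close together, PCNA stands highest at 428 FPKM in shPSPC1 and 467 FPKM in shLacZ, and the open triangle at the left edge is PRIM1, listed at 0 in shPSPC1 and at 28.6 FPKM in shLacZ.

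Genes that license origins did not move as 1 group. ORC1, the largest subunit of the origin recognition complex, stood at 12.2 ± 0.677 FPKM in shPSPC1 and 11.2 ± 0.654 FPKM in shLacZ, with overlapping intervals. ORC6, a further subunit, stood at 24.7 ± 1.09 FPKM in shPSPC1 and 26.8 ± 1.47 FPKM in shLacZ, also overlapping. CDT1, which brings the helicase to origins, stood at 11.5 ± 0.567 FPKM in shPSPC1 and 10.2 ± 0.538 FPKM in shLacZ, so it was higher with intervals apart. The log2 ratio of CDT1 was 0.15 by both measures. CDC6, the ATPase that works with the origin recognition complex to load the ring, differed most of the 4. It stood at 28.6 ± 0.952 FPKM in shPSPC1 and 49.96 ± 1.62 FPKM in shLacZ, a log2 ratio of -0.78. By estimated fragments it had 4430 in shPSPC1 and 5900 in shLacZ, a log2 ratio of -0.42 ± 0.057. CDC6 was therefore lower by both measures and past the rule by neither.

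The MCM ring differed from control in each of its subunits by a small amount. By estimated fragments 5 of the 6 subunits were lower in shPSPC1 with intervals apart, beside 26.4% of all genes, and MCM3 was higher, beside 26.7%. MCM2 stood at 38.3 ± 0.905 FPKM in shPSPC1 and 43.3 ± 0.970 FPKM in shLacZ. MCM4 stood at 54.5 ± 0.907 FPKM in shPSPC1 and 61.1 ± 0.968 FPKM in shLacZ. MCM5 stood at 43.4 ± 1.13 FPKM in shPSPC1 and 49.2 ± 1.21 FPKM in shLacZ. These 3 differed by nearly the same factor, with log2 ratios of -0.17, -0.16 and -0.18. MCM7, the most abundant subunit, stood at 107 ± 1.68 FPKM in shPSPC1 and 124 ± 2.19 FPKM in shLacZ, and had 16267 estimated fragments in shPSPC1 and 18051 in shLacZ. MCM3 went the other way, at 40.8 ± 0.970 FPKM in shPSPC1 and 33.1 ± 0.879 FPKM in shLacZ, a log2 ratio of 0.29 by both measures. Its fragments were 7080 in shPSPC1 and 5656 in shLacZ.

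MCM6 gave opposite signs by the measures. Its summed FPKM was 23.9 ± 1.12 in shPSPC1 and 19.1 ± 0.613 in shLacZ, a log2 ratio of 0.31, while its fragments were 3254 in shPSPC1 and 3894 in shLacZ, a log2 ratio of -0.27 ± 0.069. The annotated transcript of 17 exons had 11.1 FPKM in shPSPC1 and 19.1 FPKM in shLacZ, and an assembled transcript of 10 exons and 1474 bases, in the shPSPC1 file alone, had 12.8 FPKM. MCM10, a replication factor outside the ring that helps to activate it, also split, with log2 ratios of 0.16 by summed FPKM and -0.16 ± 0.059 by fragments. The order of the subunits by FPKM in shPSPC1 was MCM7, MCM4, MCM5, MCM3, MCM2 and MCM6. In shLacZ it was the same except that MCM2 stood above MCM3.

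CDC45 and the GINS subunits, which complete the active helicase, were near their control levels except GINS3. CDC45 stood at 18.6 ± 0.863 FPKM in shPSPC1 and 19.9 ± 0.900 FPKM in shLacZ, with overlapping intervals. GINS2 stood at 33.9 ± 1.53 FPKM in shPSPC1 and 36.1 ± 1.59 FPKM in shLacZ, also overlapping. The remaining subunits were mixed. GINS1 stood at 34.3 ± 0.876 FPKM in shPSPC1 and 37.6 ± 0.925 FPKM in shLacZ, lower with intervals apart. GINS3 stood at 6.80 ± 0.549 FPKM in shPSPC1 and 9.72 ± 0.662 FPKM in shLacZ. Its 800 estimated fragments in shPSPC1, against 1124 in shLacZ, gave a log2 ratio of -0.45 ± 0.133. GINS4 stood at 10.5 ± 0.473 FPKM in shPSPC1 and 10.1 ± 0.533 FPKM in shLacZ. In shLacZ the GINS3 and GINS4 intervals overlapped, and in shPSPC1 GINS3 lay below GINS4 with intervals apart.

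Polymerase subunits were close in level, and the primase subunit PRIM1 was the exception. POLA1, the catalytic subunit of polymerase alpha, stood at 15.8 ± 0.518 FPKM in shPSPC1 and 15.2 ± 0.549 FPKM in shLacZ. POLD1, the catalytic subunit of polymerase delta, stood at 19.6 ± 0.644 FPKM in shPSPC1 and 22.8 ± 0.700 FPKM in shLacZ, lower with intervals apart. POLE, the catalytic subunit of polymerase epsilon, stood at 8.74 ± 0.282 FPKM in shPSPC1 and 9.34 ± 0.294 FPKM in shLacZ, narrowly apart, with a log2 ratio of -0.09. Its partner POLE2 stood at 9.49 ± 0.693 FPKM in shPSPC1 and 9.34 ± 0.699 FPKM in shLacZ, with overlapping intervals.

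PRIM1 encodes the catalytic subunit of primase, which starts every new strand. It was listed at 0 in shPSPC1 and stood at 28.6 ± 1.25 FPKM in shLacZ, with 2089 estimated fragments there. No fold is given against a gene listed at 0. In the coordinates of the files, whose scaffold names are those of GRCh37, PRIM1 lies at 12:57125364-57146146 on the minus strand, with 13 exons and 1462 bases of transcript. The row listed at 0 carried the mark for full read support, which Cufflinks gives where reads cover the introns and internal exons of a transcript. In both files PRIM1 carries the same locus identifier as NACA, which encodes a subunit of a complex that binds nascent protein chains. An assembled NACA transcript in the shPSPC1 file has 9 exons and 767 bases, and stood at 447 ± 7.60 FPKM. Its outermost exon is a single base, which is the edge of a PRIM1 exon. The annotated NACA transcript that stood at 249 FPKM in shLacZ was itself listed at 0 in shPSPC1. The assembled transcript shared 0 introns with PRIM1. Its introns were those of the annotated NACA transcript at 249 FPKM in shLacZ, except the intron that reaches the PRIM1 exon edge. No PRIM1 or NACA transcript in the shLacZ file has that intron. NACA summed to 521 FPKM in shPSPC1 and 320 FPKM in shLacZ, and by estimated fragments to 19291 in shPSPC1 and 16011 in shLacZ. Whether the joined locus bears on the 0 was not tested. A value of 0 in 1 library beside 1 FPKM or more in the other was not unique to PRIM1: 98 genes (0.851%) had it in shPSPC1, of which 64 had a transcript with full read support, and 104 (0.903%) had it in shLacZ, 62 of them with such support.

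**Figure D2:**
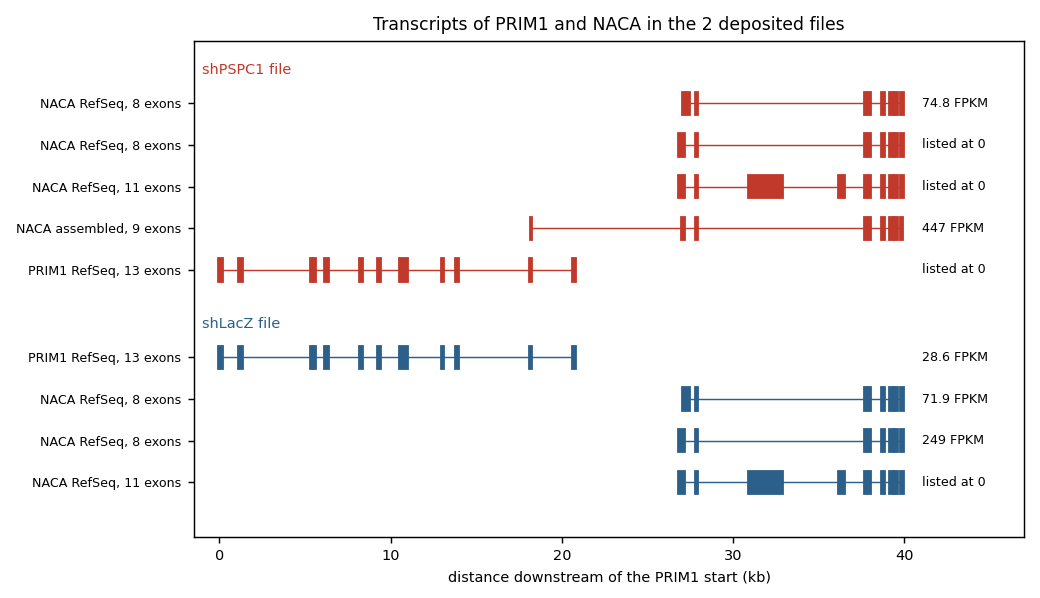
Transcripts of PRIM1 and NACA in the shPSPC1 file (red, above) and the shLacZ file (blue, below), with distance in kb downstream of the PRIM1 start on the horizontal axis and FPKM at the right; blocks are exons drawn slightly wider than scale. The 9-exon NACA transcript at 447 FPKM reaches into the PRIM1 span in the shPSPC1 file, where PRIM1 is listed at 0, and PRIM1 stands at 28.6 FPKM in the shLacZ file.

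Of the clamp and its loaders, 3 of 6 genes were lower with FPKM intervals apart, PCNA, RFC2 and DSCC1, beside 25.6% of all genes. With intervals of fragments apart, 1 was lower, beside 26.4%, and 1 was higher, beside 26.7%. PCNA, the sliding clamp of the polymerases, was lower by summed FPKM, with a log2 ratio of -0.13, and higher by fragments, with 21019 in shPSPC1 and 19981 in shLacZ and a log2 ratio of 0.05 ± 0.029. Its annotated transcript of 1319 bases stood at 256 FPKM in shPSPC1 and 261 FPKM in shLacZ, and the rest came from short assembled transcripts that differed between the files. The RFC subunits RFC3, RFC4 and RFC5 overlapped in FPKM, RFC4 at 26.3 ± 1.23 FPKM in shPSPC1 and 24.3 ± 1.19 FPKM in shLacZ. RFC2 stood at 30.6 ± 1.28 FPKM in shPSPC1 and 38.1 ± 1.84 FPKM in shLacZ, a log2 ratio of -0.31, but of -0.03 by fragments.

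DSCC1 differed by nearly the size the rule asks for. It encodes a subunit of the alternative clamp loader that acts in sister chromatid cohesion. It stood at 4.98 ± 0.462 FPKM in shPSPC1 and 9.60 ± 0.569 FPKM in shLacZ, which is 51.9% of the control level. Its estimated fragments were 599 in shPSPC1 and 1136 in shLacZ, and its log2 ratio was -0.82 by both measures, ± 0.146 by fragments.

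Genes that finish lagging strands and repair DNA lay close to control. FEN1, the nuclease that trims Okazaki flaps, stood at 58.6 ± 1.39 FPKM in shPSPC1 and 55.8 ± 1.36 FPKM in shLacZ, higher with intervals apart by 0.07 on the log2 scale. LIG1, the ligase that seals the nicks, stood at 22.8 ± 0.883 FPKM in shPSPC1 and 24.5 ± 0.911 FPKM in shLacZ. UNG, which removes uracil, stood at 31.6 ± 1.17 FPKM in shPSPC1 and 34.4 ± 1.22 FPKM in shLacZ, lower with intervals apart. The helicase BLM and the deubiquitinase USP1 had log2 ratios of -0.05 and -0.02 by both measures. The nuclease EXO1 stood at 16.3 ± 0.713 FPKM in shPSPC1 and 18.8 ± 1.68 FPKM in shLacZ, lower with intervals apart and a log2 ratio of -0.20, but had 0.04 by fragments. RAD51AP1, a DNA repair protein, had a log2 ratio of 0.07 by FPKM and -0.22 by fragments.

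The enzymes of nucleotide supply had log2 ratios below 0 in 4 of 4 genes by both measures, beside 48.9% of all genes, and in 3 of 4 when scaled without mitochondrial genes, where TYMS stood at 0.07. RRM1, the large subunit of ribonucleotide reductase, stood at 67.8 ± 1.25 FPKM in shPSPC1 and 74.6 ± 1.32 FPKM in shLacZ. RRM2, its small subunit, known to peak in S phase, stood at 74.3 ± 1.93 FPKM in shPSPC1 and 82.3 ± 2.04 FPKM in shLacZ. RRM2 fragments were 9213 in shPSPC1 and 11305 in shLacZ, a log2 ratio of -0.31 ± 0.040. The kinase TK1, which salvages thymidine, stood at 57.3 ± 1.68 FPKM in shPSPC1 and 65.3 ± 1.801 FPKM in shLacZ. TYMS, the enzyme that makes thymidylate, overlapped at 22.9 ± 1.08 FPKM in shPSPC1 and 23.3 ± 1.098 FPKM in shLacZ. Of the fork checkpoint genes, TIPIN stood at 21.0 ± 1.15 FPKM in shPSPC1 and 24.0 ± 1.24 FPKM in shLacZ, lower with intervals apart, and CLSPN overlapped.

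Several chromatin genes differed between the measures. NASP, a histone chaperone, stood at 59.8 ± 2.06 FPKM in shPSPC1 and 39.5 ± 1.24 FPKM in shLacZ, a log2 ratio of 0.59, but of 0.16 ± 0.052 by fragments, 6454 in shPSPC1 and 5683 in shLacZ. In shPSPC1, 3 assembled NASP transcripts that the shLacZ file lacks held 15.7, 11.6 and 13.0 FPKM, while an annotated transcript of 14 exons was listed at 0 in shPSPC1 and stood at 22.0 FPKM in shLacZ. Annotated NASP transcripts alone summed to 19.5 FPKM in shPSPC1 and 39.5 FPKM in shLacZ, which turns the log2 ratio to -0.98. UHRF1, which reads hemimethylated DNA and keeps methylation after replication, stood at 18.2 ± 0.692 FPKM in shPSPC1 and 29.2 ± 1.34 FPKM in shLacZ. Its log2 ratio was -0.65 by FPKM and -0.16 ± 0.066 by fragments, and a 6-exon assembled transcript of 1174 bases in the shLacZ file held 14.0 FPKM. A 15-exon assembled transcript with introns seen in the shPSPC1 file alone held 14.6 FPKM there. The annotated UHRF1 transcript stood at 3.60 FPKM in shPSPC1 and 15.1 FPKM in shLacZ.

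HELLS, a remodelling ATPase, reversed between the measures. It stood at 31.7 ± 0.870 FPKM in shPSPC1 and 29.9 ± 0.858 FPKM in shLacZ, a log2 ratio of 0.08, whereas fragments were 5317 in shPSPC1 and 7916 in shLacZ, a log2 ratio of -0.58 ± 0.051. The shLacZ file holds an assembled HELLS transcript of 22 exons and 11600 bases, whose last exon of 8443 bases runs 7871 bases past the end of the annotated gene, with 6.25 FPKM and 4012 fragments. In the shPSPC1 file a piece without strand of 6259 bases overlaps only the far end of that stretch. It runs on to 12212 bases past the annotated end. The piece had 6.42 FPKM and 2234 fragments and was not counted to HELLS. The annotated HELLS transcript alone stood at 31.7 FPKM in shPSPC1 and 23.7 FPKM in shLacZ.

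The other chromatin genes lay within 0.25 of 0 by both measures. ATAD2, a bromodomain ATPase, stood at 32.2 ± 0.646 FPKM in shPSPC1 and 37.4 ± 0.702 FPKM in shLacZ, and SLBP, which binds histone mRNA stem loops, at 47.9 ± 1.47 FPKM in shPSPC1 and 53.8 ± 1.56 FPKM in shLacZ. The assembly factor CHAF1A had a log2 ratio of 0.09, and CHAF1B, CDCA7 and WDR76 lay between -0.13 and -0.05 by fragments. Of the E2F factors, E2F1 stood at 12.7 ± 0.591 FPKM in shPSPC1 and 13.9 ± 0.641 FPKM in shLacZ, and E2F2 at 3.33 ± 0.261 FPKM in shPSPC1 and 3.81 ± 0.270 FPKM in shLacZ. E2F8, a repressor, stood at 2.003 ± 0.316 FPKM in shPSPC1 and 2.54 ± 0.291 FPKM in shLacZ. The FPKM intervals of E2F2 and E2F8 overlapped between the libraries. All 3 factors had log2 ratios below 0 by both measures, beside 48.9% of all genes.

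**Figure D3:**
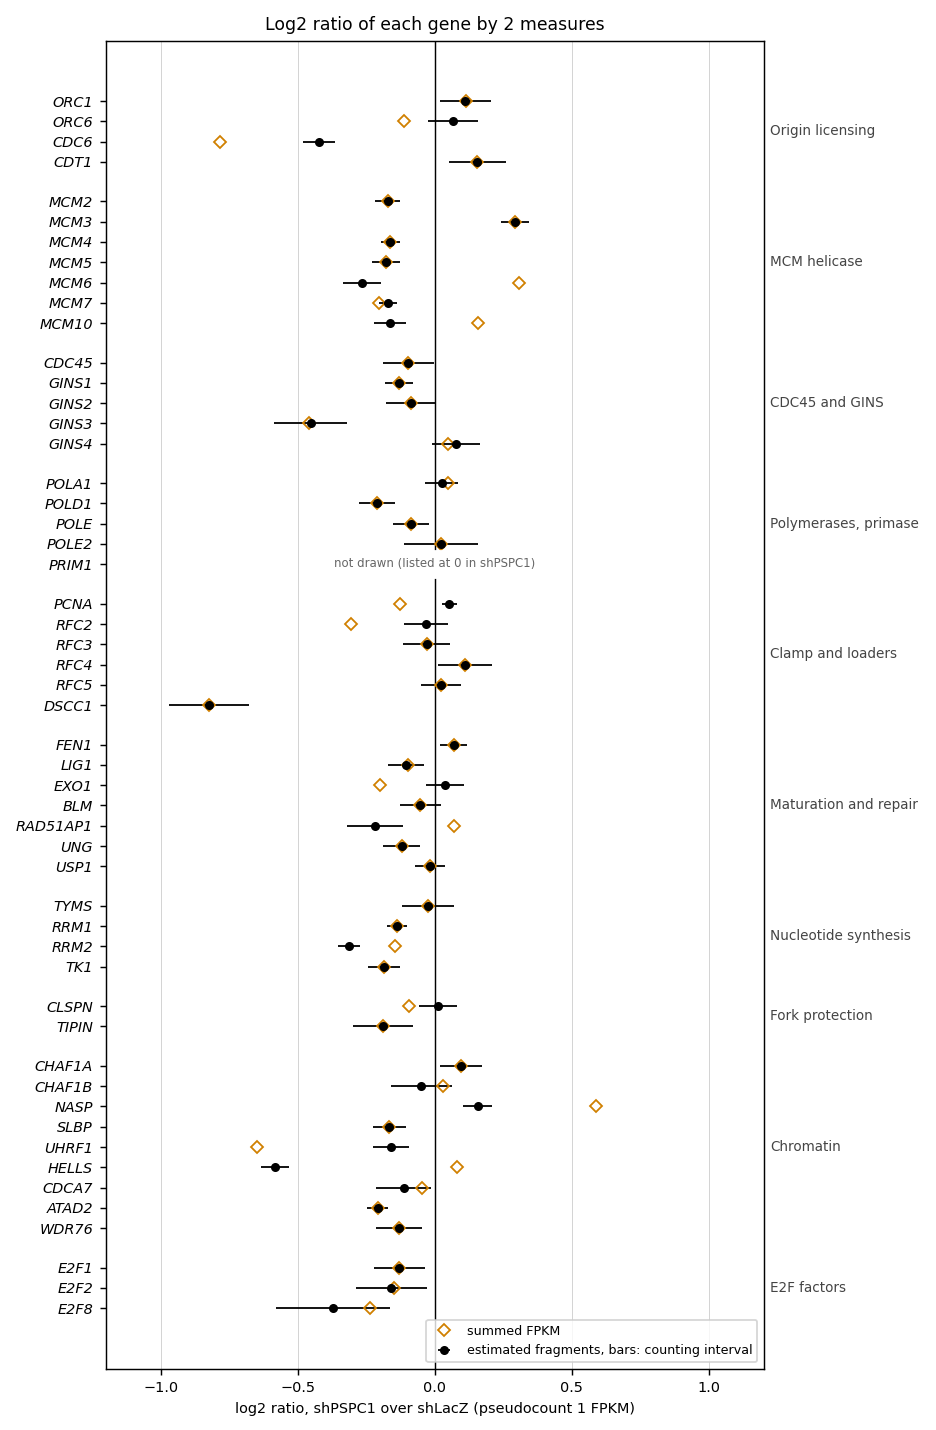
Log2 ratio of each gene, shPSPC1 over shLacZ, by summed FPKM (open diamonds) and by estimated fragments (black points with counting interval), with genes grouped by role. Of the 52 genes 43 lie within 0.25 of 0 by fragments, DSCC1 is the farthest left at -0.82, and the diamonds leave the points for CDC6, MCM6, NASP, UHRF1 and HELLS, while PRIM1 is not drawn.

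**Figure D4:**
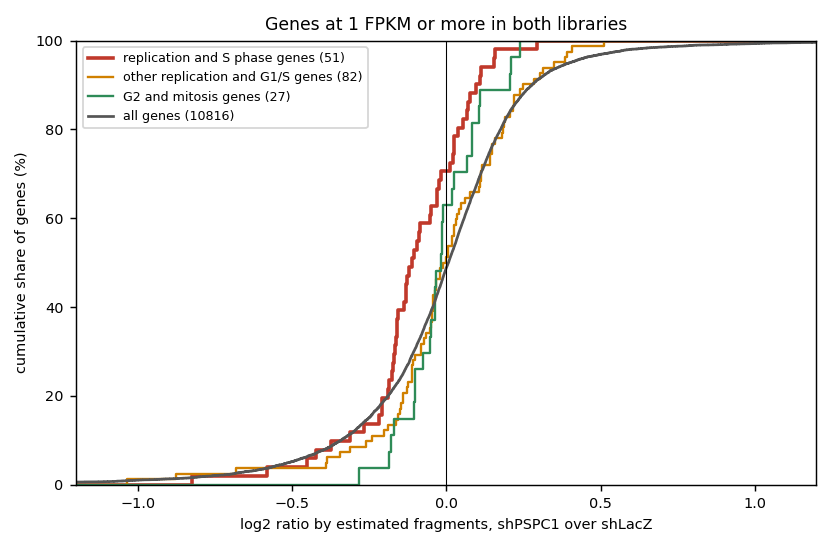
Cumulative share of genes at 1 FPKM or more in both libraries (vertical axis, percent) against the log2 ratio by estimated fragments, for the replication genes (red, 51 without PRIM1), the wider replication and G1/S list (orange), G2 and mitosis genes (green) and all 10816 genes (grey). The red curve runs left of the grey one near 0, with a median of -0.11 against 0.01, and it also stays above the grey curve on the right, where few replication genes lie.

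The sets of transcripts behind these values often differed between the files. The same intron chains were found in both files for 36 of the 52 genes, and these had a median log2 ratio of -0.10 by both measures, with 26 below 0 by FPKM and 27 by fragments. An intron chain is the ordered set of introns that defines a spliced transcript. A change of at least 0.3 in the share of a gene's FPKM held by 1 chain, with intervals apart, was seen in 10 of 48 genes (20.8%) at 5 FPKM or more in both, beside 23.3% of 7110 genes. The 10 were CDC6, CLSPN, MCM10, MCM6, NASP, PCNA, POLA1, RAD51AP1, RRM2 and UHRF1. In CDC6, the annotated chain held 100% of FPKM in shPSPC1 and 44.5% in shLacZ, where an assembled transcript of 1632 bases held 27.8 FPKM. With annotated transcripts alone the log2 ratio by FPKM changed sign in 9 genes, ORC6, MCM6, MCM7, MCM10, RFC2, EXO1, RAD51AP1, CLSPN and NASP. No share of all genes stands beside that count. MCM7 then had a log2 ratio of 0.65 and RFC2 of 0.70, while CDC6 had -2.19 and UHRF1 -1.81. That setting also drops assembled transcripts whose introns are the annotated ones. These held 24.5 FPKM of CDC6 in shPSPC1, and 55.7 FPKM of MCM7 and 19.7 FPKM of RFC2 in shLacZ. UHRF1 lost assembled transcripts with other introns, at 14.6 FPKM in shPSPC1 and 14.0 FPKM in shLacZ. By the annotated intron chain CDC6 stood at 28.6 FPKM in shPSPC1 and 22.2 FPKM in shLacZ. In RRM2, an assembled chain held 42.8 FPKM in shPSPC1. The annotated chain stood at 31.4 FPKM in shPSPC1 and 82.3 FPKM in shLacZ. In shLacZ the annotated transcript held 54.1 FPKM of it, and an assembled transcript with the same introns held 28.2 FPKM.

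**Figure D5:**
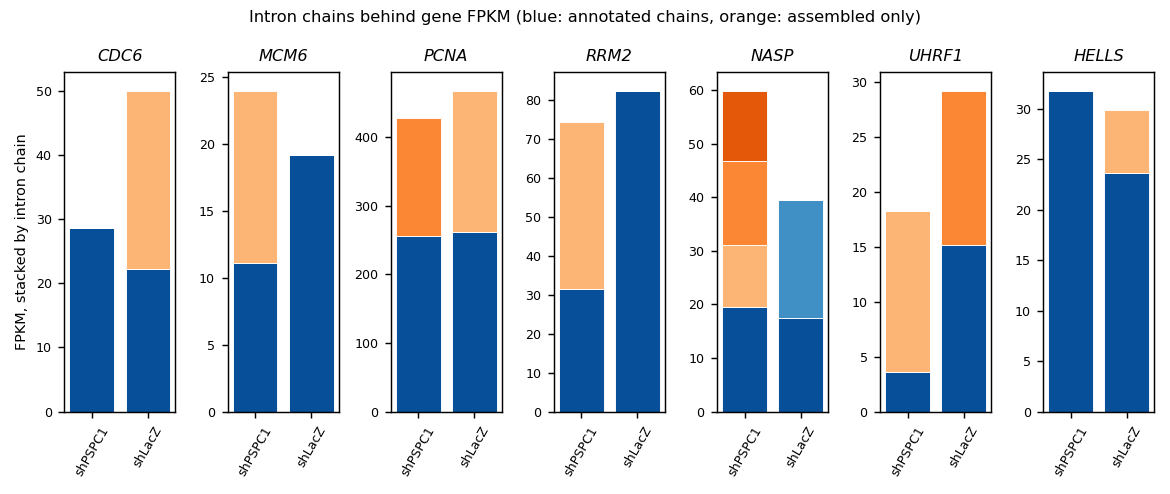
FPKM of 7 genes in each library, stacked by intron chain, with annotated chains in blue and chains seen only in an assembly in orange. Orange blocks appear in 1 library of CDC6, MCM6, RRM2, NASP and HELLS and in both of PCNA and UHRF1, so the totals compare different sets of transcripts.

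A wider list of other replication and G1/S genes held no gene that passed by both measures. Of 85 such genes 84 were measured, with median log2 ratios of -0.02 by summed FPKM and 0.00 by fragments. By summed FPKM alone ORC4 and E2F5 were past the rule: ORC4, a subunit of the origin recognition complex, stood at 3.91 FPKM in shPSPC1 and 14.0 FPKM in shLacZ but had a log2 ratio of 0.11 by fragments. E2F5, a repressor E2F, stood at 2.69 FPKM in shPSPC1 and 6.41 FPKM in shLacZ, with 0.22 by fragments. HUS1, a checkpoint clamp subunit, passed by fragments alone, with a log2 ratio of -1.03 beside 0.57 by FPKM. The G1 cyclin CCND1 stood at 41.3 FPKM in shPSPC1 and 66.8 FPKM in shLacZ, a log2 ratio of -0.68 by both measures. Cyclin CCND3 stood at 61.0 FPKM in shPSPC1 and 45.2 FPKM in shLacZ. Of 27 G2 and mitosis genes none passed and 26 lay within 0.25 of 0, with a median log2 ratio of -0.02 by both measures.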

How the data were processed

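Each library had 1 deposited transcript file, in which the authors gave FPKM with a 95% interval per transcript, per the file headers' attributes. CASAVA 1.8.2 with TopHat2 2.0.7 and Cufflinks 2.1.1 are named in the submitters' processing notes. Their roles, strand handling and genome build are not given in the sources used here. Gene FPKM was the sum over RefSeq transcripts and stranded assembled transcripts sharing an intron, with half-widths combined as the root of summed squares. Assembled transcripts without strand, 36255 in shPSPC1 and 29208 in shLacZ, were not counted. Depth came from the intervals of transcripts alone at their locus, which gave whole fragments within 0.02 for 96.9% of 32811 in shPSPC1 and 96.8% of 26580 in shLacZ. Effective length used mean fragment lengths of 165 and 161 bases. Python 3.11.15, pandas 2.3.3, numpy 2.4.6, SciPy 1.17.1 and matplotlib 3.10.9 were used. Members, gene lists, rules and alternatives were chosen with earlier results of these data known. All members were to be described, in full where they passed the rule of size by summed FPKM, were among the 5 most abundant, or had measures differing by over 0.5 on the log2 scale. Values of 1 gene of the wider replication list are not reported here.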

Additional observations from a re-analysis of the deposited data

Results flagged for a closer look

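Assembled pieces without a strand, which no gene value includes, lay inside the spans of these genes in both files, 45 in shPSPC1 and 27 in shLacZ. They held 9808 estimated fragments in shPSPC1 and 8429 in shLacZ, and 10 genes had any in shPSPC1 against 9 in shLacZ. Most of these fragments lay in POLA1, with 7706 in shPSPC1 and 7330 in shLacZ, and RAD51AP1 had 821 in shPSPC1 and 0 in shLacZ. RFC3 had 24 pieces in shPSPC1 and 16 in shLacZ, and E2F1 had 5 in shPSPC1 and 0 in shLacZ. By number of pieces 5 genes had more in shPSPC1, and 2 genes, PCNA and LIG1, had more in shLacZ. POLE2 had 1 piece in each file, with 8.93 fragments in shPSPC1 and 291 in shLacZ. The whole files held 36255 in shPSPC1 and 29208 in shLacZ.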

How the results depend on the processing

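The median log2 ratio of the 52 genes stayed between -0.12 and -0.09 under the alternatives that changed the transcripts counted, the pseudocount, the filter, the measure or the scaling to a median of 0, and was -0.012 when rescaled without mitochondrial genes. PRIM1 was the 1 gene lower past the rule of size. With RefSeq transcripts only the count was 4 (CDC6, PRIM1, UHRF1 and CDCA7), with no share of all genes beside it. That setting drops assembled CDC6 and CDCA7 transcripts with annotated introns, at 24.5 and 9.10 FPKM in shPSPC1. It also drops assembled UHRF1 transcripts with other introns, at 14.6 FPKM in shPSPC1 and 14.0 FPKM in shLacZ. At 1.5-fold the count was 4 (CDC6, PRIM1, DSCC1 and UHRF1), beside 5.49% of all genes. It was 0 both with genes listed at 0 left out and among the 36 genes with the same intron chains, since these leave PRIM1 out. At 1.5-fold 1 gene was higher, NASP. The same-chain alternative was chosen after seeing the data. No paired analysis was possible because each group has 1 library. The intervals hold no variation between cultures, so depth limits only what lies within them.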
